A study of Danio rerio with 30 samples.

Results

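The change of the head transcriptome between 5 and 10 days post fertilisation (dpf) was measured in zebrafish larvae with a knockdown of grb10a. The comparison rests on 6 of the 30 arrays of the series, 3 knockdown arrays at 10 dpf and 3 at 5 dpf, which were chosen by the group and age in their titles and by no measured value. All groups were AB strain fish, and each array held total RNA from 1 pool of 5 fish, taken from everything in front of the gills. Knockdown fish had received a splice-blocking morpholino against grb10a (series design: splice donor of coding exon 3; the treatment notes also name exon 4), injected into the yolk before the 4-cell stage. The control groups, used here only for their own step from 5 to 10 dpf, carried a standard morpholino directed at human beta-globin, and both kinds of fish also carried the blue fluorescent reporter nCerulean, by which they were screened at 48 h. All fish were kept on 14 h of light and 10 h of dark, in egg water to 5 dpf and then in the aquarium system, where young fry received powdered food and rotifers. Age, feeding and the move of tanks therefore cannot be told apart. The labels give no hour of sampling, and its part in any result was not tested.

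Between these ages a zebrafish larva passes from its yolk to outside food. Its retina already works at 5 dpf through cones, the photoreceptors of daylight, and rods take part in vision later. In both cell types light closes a channel gated by cyclic GMP: an opsin activates transducin, transducin activates a phosphodiesterase, and guanylate cyclases with their calcium-sensing activators restore the messenger. Grb10 proteins are adaptors that bind the insulin and insulin-like growth factor (IGF) receptors and, in mammals, dampen their signal. A knockdown by morpholino is transient, since the oligonucleotide is diluted as the larva grows.

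The signal of a gene is given on the log2 scale of the array, so that a difference of 1 is a 2-fold change. The median signal of the 6 arrays lay between 5.54 and 5.61, and arrays of 1 group correlated at 0.968 to 0.983 over all genes; the number of arrays limits the precision. Values of an age are given in the order of replicates 1, 2 and 3, and differences are 10 minus 5 dpf, each with a standard error (SE). The words "rose" and "fell" mean an adjusted p under 0.05 in limma's moderated test over 19260 genes. P-values and SEs rest on the spread between pools and not between single fish. That spread was estimated over the pools of all groups of the series, so an SE need not describe the 6 pools compared. Genes whose mean over all arrays was under 6.06, the lowest 33.3%, are called dim. Head tissue was present in every pool by its markers: the neuronal RNA-binding protein elavl3 read 11.07, 11.16 and 11.18 at 5 dpf and 10.76, 10.84 and 10.77 at 10 dpf (adjusted p = 0.0624), and the ultraviolet cone opsin opn1sw1 lay between 12.79 and 12.98 in all 6 arrays.

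Genes of trunk organs had a low mean signal at both ages. The mean of 134 genes of exocrine pancreas, liver and intestine was 5.48 ± 0.24 (SD, n = 3) at 5 dpf and 5.27 ± 0.09 (SD, n = 3) at 10 dpf, against 7.82 ± 0.03 (SD, n = 3) in control heads at 5 dpf. Replicate 1 at 5 dpf stood apart. In it the liver secretory gene fetub read 10.13 against 4.54 and 5.42 in the other pools of that age, and the mean of the 54 liver genes was 6.06 against 5.46 and 5.29. In replicate 3 at 10 dpf the trypsin gene prss1 read 6.86 against 5.26 and 4.94. Of the liver list 2 members fell (3.70%, against 2.91% of all genes), with 1 fall without replicate 1 and 5 without replicate 3 of 5 dpf. With all arrays the creatine synthesis enzyme gamt fell by 1.03 (SE 0.21, adjusted p = 0.00282) and the tyrosine-degrading enzyme tat by 1.08 (SE 0.24, adjusted p = 0.005). The call of tat was lost without replicate 1 at 5 dpf (adjusted p = 0.0534).

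The targeted gene itself fell with age. The probe set of grb10a read 9.28, 9.10 and 8.95 at 5 dpf and 8.24, 8.16 and 7.97 at 10 dpf. All 3 pools at 10 dpf lay below all 3 at 5 dpf, a drop of 0.99 (SE 0.12, adjusted p = 3.64e-06). Control heads read 8.05, 8.21 and 8.03 and then 8.20, 7.95 and 7.75, so the knockdown heads stood above the controls at 5 dpf and close to them at 10 dpf. The step of the controls was -0.13 (adjusted p = 0.43), and the steps of knockdown and control heads differed by -0.85 (adjusted p = 0.00101). The labels do not say where the probes lie relative to the blocked splice junction, and the value therefore checks no label. The paralog grb10b read 7.51, 7.71 and 7.53 and then 7.07, 6.81 and 7.06, again with no overlap, and fell by 0.61 (SE 0.15, adjusted p = 0.0141); the call was lost without replicate 2 of 5 dpf (adjusted p = 0.0622) or of 10 dpf (0.0834). Among 54 genes of insulin and IGF signalling 2 rose (3.70%, against 5.35% of all genes) and 3 fell (5.56%, against 2.91%). The rises were none in limma without replicate 2 of 10 dpf and 1 without replicate 1 or 3 of 5 dpf. The third fall was foxo3a, a transcription factor that insulin signalling keeps out of the nucleus, at -0.76 (SE 0.12, adjusted p = 0.000175). The IGF-binding protein igfbp1a, known as a marker of fasting and low oxygen in fish, rose by 0.79 (SE 0.20, adjusted p = 0.0123), a call lost without replicate 3 of 5 dpf (adjusted p = 0.0555) or replicate 2 of 10 dpf (0.0998).

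Over all genes 1590 of 19260 (8.26%) were called, 1030 higher at 10 dpf (5.35%) and 560 lower (2.91%). At least 2-fold changes were 106 rises and 91 falls, and at least 4-fold changes 9 rises and 6 falls. The median step of all genes was 0.01. The 3 pools of 1 age lay wholly outside the range of the other 3 for 4119 genes (21.4%), 2417 higher (12.5%) and 1702 lower (8.84%). The largest rises and falls named below were picked among such genes, so their lack of overlap follows from the choice. The count depended on single arrays. Without replicates 1, 2 or 3 of 5 dpf it was 831, 1112 and 1423, and without those of 10 dpf 1553, 852 and 1402. Each of these fits also has 1 array fewer. With the spread estimated from the 6 arrays alone, which leaves fewer degrees of freedom, it was 333. The share of rises depended on the scaling. Rises made up 64.8% of the calls as deposited, 54.0% (985 and 840) after a second quantile normalization and 47.6% (832 and 916) after median centring of each array, and 73.9% (1036 and 366) without replicate 3 of 10 dpf.

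**Figure D1:**
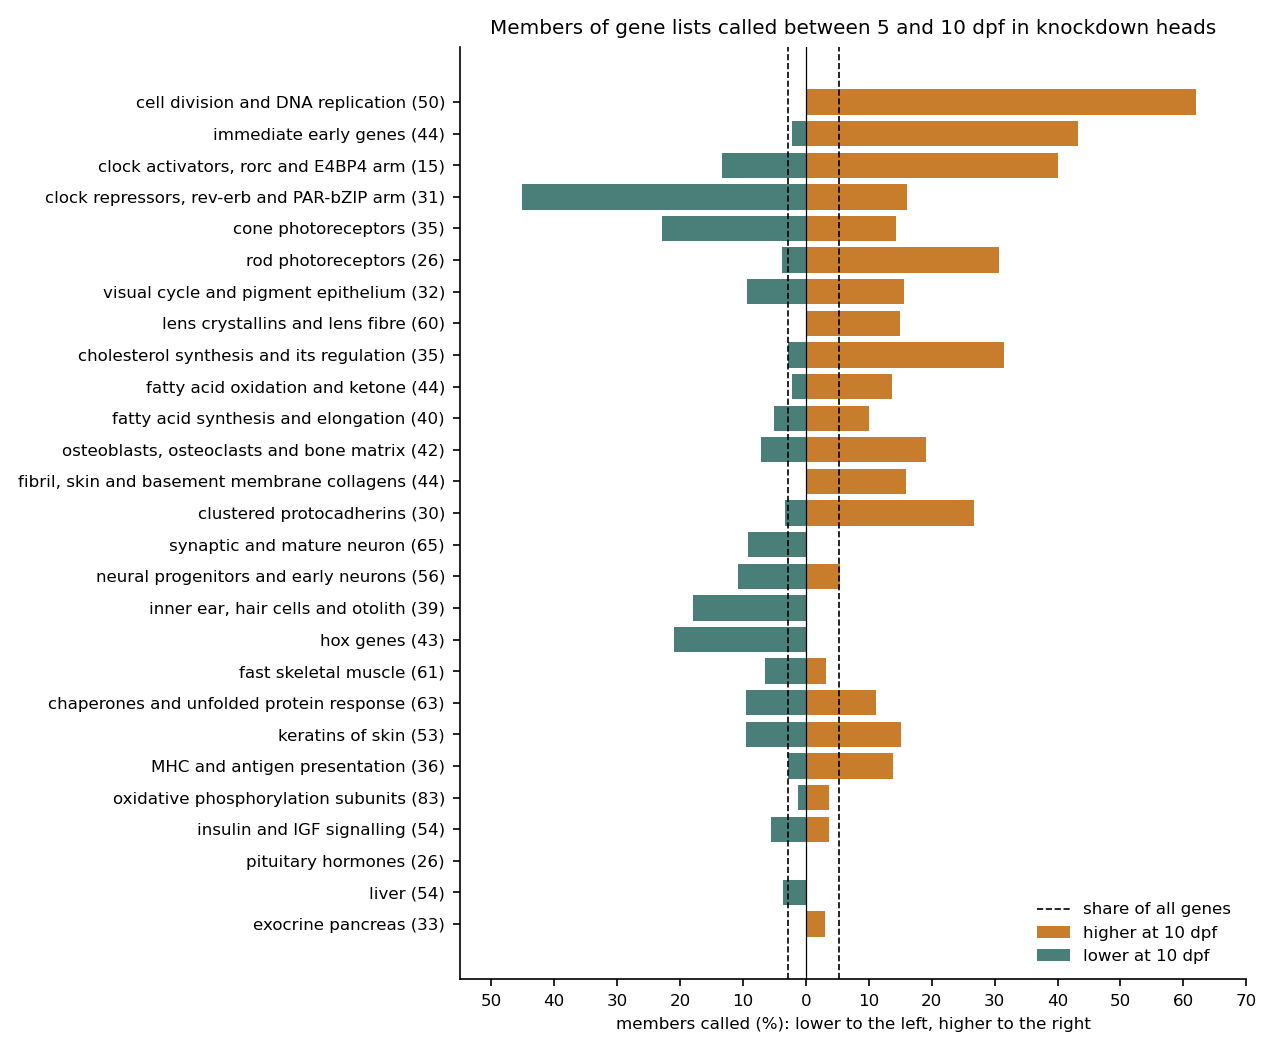
Share of the measured members of each plotted gene list (number in brackets) that were called higher (bars to the right) or lower (bars to the left) at 10 than at 5 dpf in knockdown heads, in percent; the broken lines mark the share over all 19260 genes, 5.35% higher and 2.91% lower. Of the lists plotted, cell division, immediate early and the list of clock activators, rorc and nfil3 extend farthest to the right. The clock repressor list extends farthest to the left.

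Cone genes moved in both directions. Of 35 measured members of the cone list 5 rose (14.3%, against 5.35% of all genes) and 8 fell (22.9%, against 2.91%). The median step was 0.06 (0.00 after median centring). The opsins are the light sensors and set the colour of a cone. The red opsin opn1lw1 read 5.70, 5.70 and 5.13 at 5 dpf and 9.02, 8.83 and 8.16 at 10 dpf, a rise of 3.16 (SE 0.25, adjusted p = 4.74e-09). Its tandem copy opn1lw2 was bright at both ages, 9.84, 10.75 and 10.56 and then 11.22, 10.84 and 10.90, a step of 0.61 that missed the threshold (adjusted p = 0.109). Probes of such near-identical copies may share signal. The blue opsin opn1sw2 read 10.49, 10.95 and 10.48 and then 11.57, 11.51 and 12.07, a rise of 1.08 (SE 0.15, adjusted p = 4.68e-05). The ultraviolet opsin opn1sw1 was level at 0.04 (adjusted p = 0.858), and the green opsin opn1mw1 overlapped between ages with a step of 0.84 (adjusted p = 0.1; 0.038 without replicate 1 of 10 dpf). Red and blue opsins were thus higher at 10 dpf in every pool.

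Several genes downstream of the opsins fell, while 22 of the 35 list members passed in neither direction. The cone phosphodiesterase pde6c, which breaks down cyclic GMP in light, read 11.44, 11.68 and 11.34 at 5 dpf and 10.02, 9.84 and 10.17 at 10 dpf and fell by 1.48 (SE 0.13, adjusted p = 2.83e-08). Its inhibitory subunit pde6ha fell by 0.60 (SE 0.12, adjusted p = 0.00145). The cone opsin kinase grk7a, which shuts off an activated opsin, read 8.28, 8.71 and 8.52 and then 6.55, 6.06 and 6.66, a fall of 2.08 (SE 0.16, adjusted p = 4.38e-09). In none of these genes did the ages overlap. The cone channel subunit cnga3a fell by 1.41 (SE 0.16, adjusted p = 9.77e-07) and the guanylate cyclase gucy2d by 0.80 (SE 0.14, adjusted p = 0.000588). The transducin subunit gnb3b rose by 0.63 (SE 0.14, adjusted p = 0.0044) and the recoverin rcvrnb by 0.81 (SE 0.19, adjusted p = 0.00742), a call lost without replicate 1 of 5 dpf (adjusted p = 0.0577) or replicate 3 of 10 dpf (0.0543).

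The guanylate cyclase activators, calcium sensors that switch the cyclases on when calcium is low, moved in both directions. From 5 to 10 dpf guca1d went from 7.19, 7.92 and 7.89 to 5.15, 5.45 and 5.14, a fall of 2.42 (SE 0.19, adjusted p = 4.74e-09). The relative guca1c fell by 1.97 (adjusted p = 8.6e-08) to 6.16, 6.17 and 6.18, and guca1g fell by 1.88 (adjusted p = 1.96e-07). For the tandem pair guca1ab.1 and guca1ab.2 the signs were opposite. The first rose from 6.71, 7.12 and 7.02 to 9.27, 8.75 and 8.78, by 1.99 (SE 0.22, adjusted p = 9.58e-07). The second went from 8.95, 9.06 and 8.61 to 6.99, 6.68 and 6.57, and fell by 2.12 (SE 0.23, adjusted p = 8.51e-07). In RNA from whole tissue fewer cells of a type and less RNA per cell cannot be told apart.

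**Figure D2:**
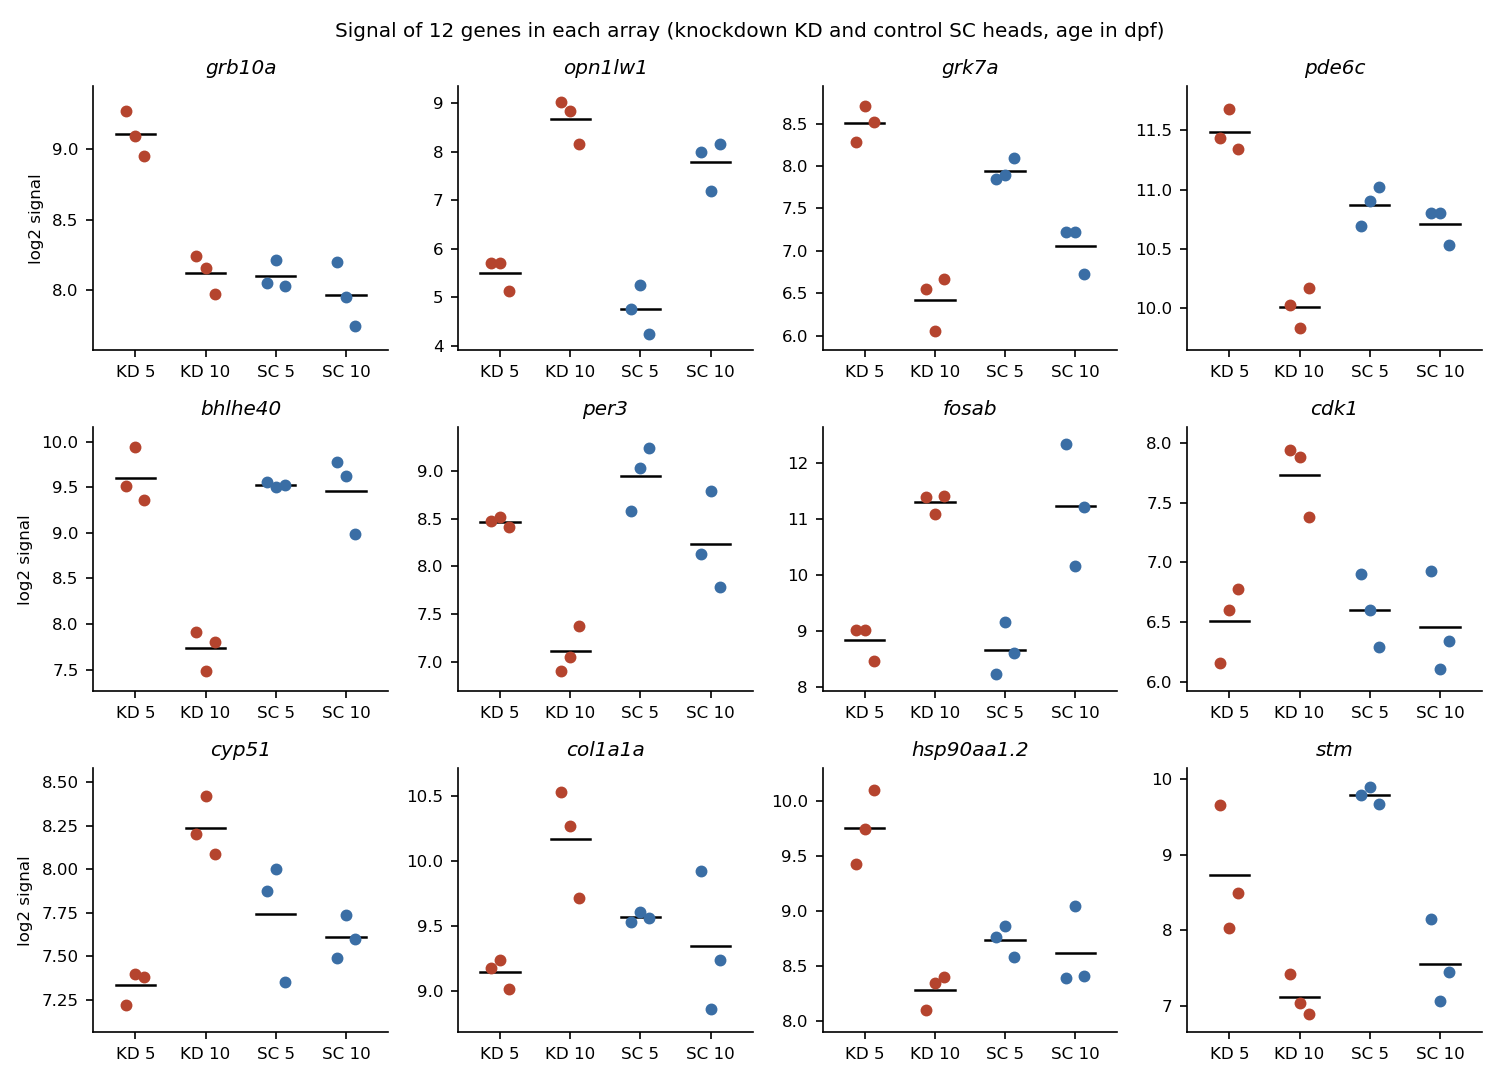
Log2 signal of 12 genes in each array (points) with the group mean (bar) for knockdown (KD) and control (SC) heads at 5 and 10 dpf. In knockdown heads the points of the ages do not overlap in any of the 12 genes, some of which were picked by that rule. The genes bhlhe40, pde6c, cdk1 and hsp90aa1.2 change in knockdown heads while the control points overlap between ages.

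Among the largest falls were genes outside the phototransduction cascade. The largest fall of all named genes was ankrd33ab, whose mouse counterpart is a nuclear cofactor of photoreceptors, from 9.04, 9.57 and 9.26 to 6.24, 5.79 and 5.96, by 3.30 (SE 0.19, adjusted p = 2.82e-11). The gene faim2b, named for an inhibitor of cell death in mammals, fell from 10.75, 11.51 and 11.17 to 9.38, 8.70 and 8.88, by 2.16 (SE 0.23, adjusted p = 6.05e-07). Retinoid carriers bring the chromophore to and from the photoreceptors. Among 32 genes of the visual cycle and pigment epithelium 5 rose (15.6%, against 5.35% of all genes) and 3 fell (9.4%, against 2.91%). Of the falls 2 were the carriers rbp4l (-1.89, SE 0.15, adjusted p = 4.74e-09) and rbp3 (-1.22, SE 0.12, adjusted p = 3.28e-07). For rbp4l the pools read 10.80, 11.27 and 10.90 and then 9.09, 8.96 and 9.25. The count of rises was 2 without replicate 1 of 5 dpf or replicate 3 of 10 dpf and 3 without replicate 2 of 10 dpf.

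Rod genes rose in part. Of 26 members 8 rose (30.8%, against 5.35% of all genes) and 1 fell (3.85%, against 2.91%). The other 17 passed in neither direction, and the median was 0.19. The rod phosphodiesterase subunit pde6a went from 6.91, 7.34 and 7.68 to 8.26, 8.37 and 8.43, a rise of 1.04 (SE 0.17, adjusted p = 0.000224). Its partner pde6b rose by 0.68 (adjusted p = 0.00443), the rod transducin gnat1 by 0.73 (adjusted p = 0.00129) and the cyclase gucy2f by 0.70 (adjusted p = 0.000607). The fall was rcvrn3, a recoverin, a calcium-binding brake on opsin kinases, at -1.19 (SE 0.19, adjusted p = 0.000219). Without replicate 1 of 5 dpf 4 members rose.

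Lens genes rose or did not pass. Of 60 crystallins and lens fibre genes 9 rose (15.0%, against 5.35% of all genes) and none fell in limma. At an unadjusted p under 0.05 16 were higher and none lower. The median was 0.23, and 24 members were dim. Without replicate 1 of 5 dpf 3 rose, without replicate 1 of 10 dpf 4 and without replicate 2 of 10 dpf 5. The crystallin crygn1 went from 7.84, 8.36 and 8.22 to 9.53, 9.52 and 9.26, a rise of 1.296 (SE 0.16, adjusted p = 5.92e-06). The crystallin crygm2e rose by 2.11 (SE 0.31, adjusted p = 6.87e-05), from 2.93, 3.08 and 3.34 to 5.01, 5.15 and 5.52. All 6 of these levels are under 6.06. A crystallin-domain gene outside the list, crybg2, rose by 2.4005 (SE 0.19, adjusted p = 4.38e-09) from 8.29, 8.81 and 9.14 to 10.98, 11.48 and 10.97. The corneal proteoglycan keratocan, kera, rose by 1.81 (SE 0.23, adjusted p = 9.94e-06), and its pools at 10 dpf (9.51 to 10.29) all lay above those at 5 dpf (7.63 to 8.62).

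Circadian clock genes moved in both directions. In fish the activators clock and bmal switch on period and cryptochrome genes, whose proteins repress them, and rev-erb, ror, PAR-bZIP and nfil3 factors form further loops. Of 31 members of the repressor, rev-erb and PAR-bZIP list 14 fell (45.2%, against 2.91% of all genes) and 5 rose (16.1%, against 5.35%), with a median of -0.40. Of 15 members of the activator, rorc and nfil3 list 6 rose (40.0%) and 2 fell (13.3%), with a median of 0.19. The number of falls in the first list was 10 to 14 and the number of rises in the second 5 to 6 when each of the 6 arrays was left out, while the 5 rises of the first list became 3 without replicate 2 of 5 dpf and without replicates 1 or 2 of 10 dpf.

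Period genes fell, apart from per1a. The signal of per3 went from 8.47, 8.51 and 8.41 to 6.91, 7.05 and 7.38, by -1.35 (SE 0.18, adjusted p = 2.46e-05), that of per1b by -1.07 (adjusted p = 0.000351) and that of per2 by -0.88 (adjusted p = 0.00111), whereas the step of per1a was -0.17 (adjusted p = 0.729). The cryptochrome-family gene cry5 fell by 1.17 (adjusted p = 6.96e-05). Rev-erb beta, nr1d2b, which represses bmal genes, read 8.83, 8.91 and 8.94 and then 7.42, 7.24 and 7.21, a fall of 1.61 (SE 0.12, adjusted p = 4.38e-09). The pools of 1 age lay close together in nr1d2b, far closer than the ages did. The PAR-bZIP factors split: tefa fell by 1.39 (adjusted p = 8.94e-06) and tefb by 0.90 (adjusted p = 0.00245), whereas hlfb rose by 0.92 (adjusted p = 9.4e-05). The rev-erb relative nr1d4a rose by 0.84 (adjusted p = 0.000692).

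Within the repressor, rev-erb and PAR-bZIP list bhlhe40, a light- and clock-driven inhibitor of E-box promoters, showed the largest fall. It read 9.52, 9.94 and 9.36 at 5 dpf and 7.92, 7.48 and 7.81 at 10 dpf, a change of -1.87 (SE 0.19, adjusted p = 2.74e-07). In control heads the step was -0.07, and the difference of the steps was -1.81 (adjusted p = 3.04e-05). Among the activators bmal2 rose by 0.87 (adjusted p = 2.11e-05), clocka by 0.73 (adjusted p = 0.000106) and bmal1a by 0.51 (adjusted p = 0.00236). The receptor rorcb, of a family that drives bmal genes, rose by 0.61 (adjusted p = 0.00458; 0.055 without replicate 1 of 5 dpf), and its relative roraa fell by 0.54 (adjusted p = 0.00495).

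Duplicates of nfil3, the repressor that competes with PAR-bZIP factors for D-box sites, moved apart. The copy nfil3-6 fell from 9.52, 10.22 and 10.12 to 8.14, 8.03 and 7.91, by 1.93 (SE 0.25, adjusted p = 1.62e-05). The copies nfil3-5 and nfil3-2 rose by 0.98 (SE 0.17, adjusted p = 0.000329) and 0.97 (SE 0.17, adjusted p = 0.000497). At 10 dpf nfil3-2 read 10.81, 10.79 and 10.76, above every pool at 5 dpf (9.51 to 10.09). In control heads the same copies rose by 2.18 and 2.33, from lower values at 5 dpf.

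**Figure D3:**
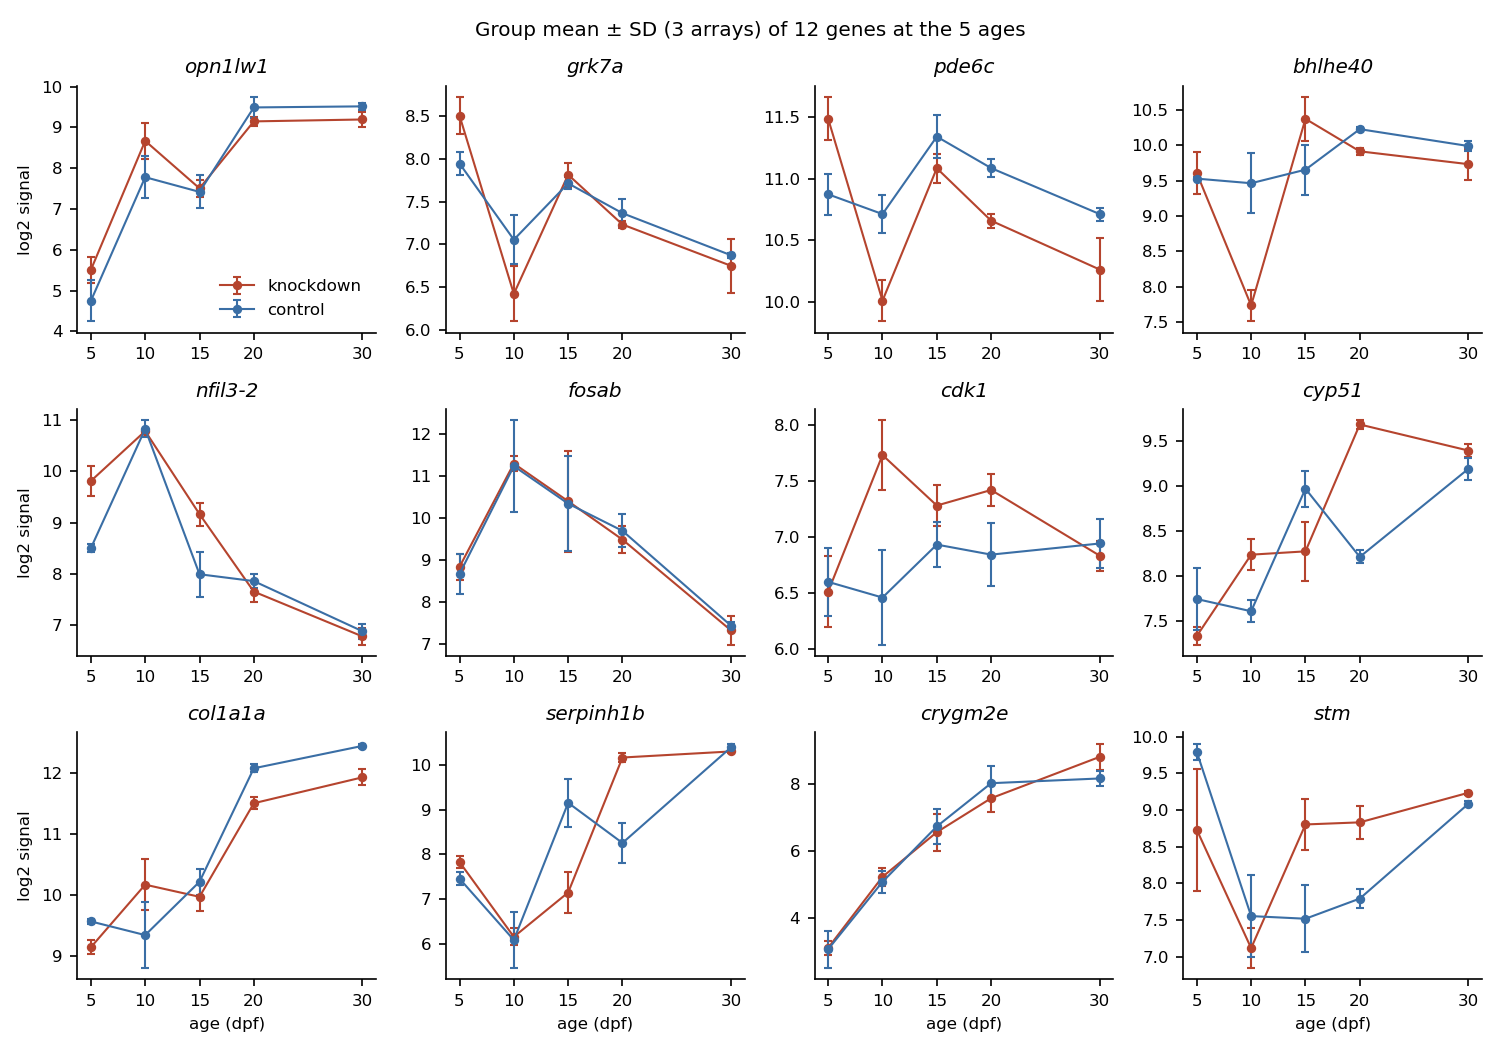
Mean log2 signal ± SD (3 arrays per group) of 12 genes in knockdown and control heads at 5, 10, 15, 20 and 30 dpf. The low signals of grk7a, pde6c and bhlhe40 in knockdown heads at 10 dpf are followed by higher means at 15 dpf, 7.81, 11.09 and 10.38, while opn1lw1, crygm2e and col1a1a are higher at 30 than at 5 dpf.

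Immediate early genes, which respond within minutes to stimuli such as neural activity or handling, rose in part. Of 44 members 19 rose (43.2%, against 5.35% of all genes) and 1 fell (2.27%, against 2.91%), and the median was 0.46. The AP-1 gene fosb went from 5.19, 5.14 and 4.99 to 8.22, 8.18 and 7.91, a rise of 2.998 (SE 0.55, adjusted p = 0.000944). Its relative fosab went from 9.02, 9.02 and 8.47 to 11.40, 11.10 and 11.41, by 2.47 (SE 0.49, adjusted p = 0.00211). Both were named among the largest rises, which were picked for no overlap between the ages. For fosb the SD was 0.11 and 0.17 in knockdown pools of 5 and 10 dpf, and 1.71 in control pools of 10 dpf, which enters its SE. The AP-1 members fosl1a and junbb rose by 2.09 (adjusted p = 0.000246) and 1.25 (adjusted p = 0.000396). The activity-dependent neuronal factor npas4a rose by 1.48 (adjusted p = 0.00277), the orphan receptor nr4a1 by 1.57 (adjusted p = 0.00241), the antiproliferative btg2 by 1.45 (adjusted p = 0.00647) and klf4 by 1.85 (adjusted p = 0.00235). In klf4 replicate 3 of 10 dpf (7.91) lay nearer to the 5 dpf pools (6.90 to 7.06) than its companions did (9.32 and 9.25). The member that fell was nr4a2a, known from dopamine neurons, at -0.88 (SE 0.15, adjusted p = 0.000329). The number of rises was 9 without replicate 1 of 5 dpf or of 10 dpf and 10 without replicate 2 of 10 dpf.

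Cell division genes rose in large part. Of 50 members 31 rose (62.0%, against 5.35% of all genes) and none fell in limma. At an unadjusted p under 0.05 36 were higher and none lower. In 34 members all 3 pools of 10 dpf lay above all 3 of 5 dpf, which 12.5% of all genes showed. The median step of the list was 0.56. The mean signal of the list was 6.52, 6.69 and 6.71 in the pools of 5 dpf and 7.28, 7.31 and 6.94 in those of 10 dpf. Replicate 3 of 10 dpf was thus the lowest of its age but still above all pools of 5 dpf. The mitotic kinase cdk1 went from 6.16, 6.60 and 6.78 to 7.94, 7.88 and 7.38, a rise of 1.22 (SE 0.20, adjusted p = 0.000307). Cyclin A, ccna2, which activates it, rose by 1.01 (adjusted p = 0.000648), and the spindle midzone protein prc1b by 1.01 (adjusted p = 0.000233). Genes of DNA synthesis rose as well: the sliding clamp pcna by 0.91 (adjusted p = 0.00235), ribonucleotide reductase rrm1 by 0.95 (adjusted p = 0.00105) and thymidylate synthase tyms by 1.07 (adjusted p = 0.00106). Topoisomerase top2a rose by 0.91 (adjusted p = 0.000132), the proliferation marker MKI67 by 0.86 (adjusted p = 0.000249), and the kinetochore proteins nuf2 and CENPF by 0.85 (adjusted p = 0.000408) and 0.66 (adjusted p = 0.000588). With each of the 6 arrays left out 21 to 33 members rose, and 9 did when the spread came from the 6 arrays alone.

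**Figure D4:**
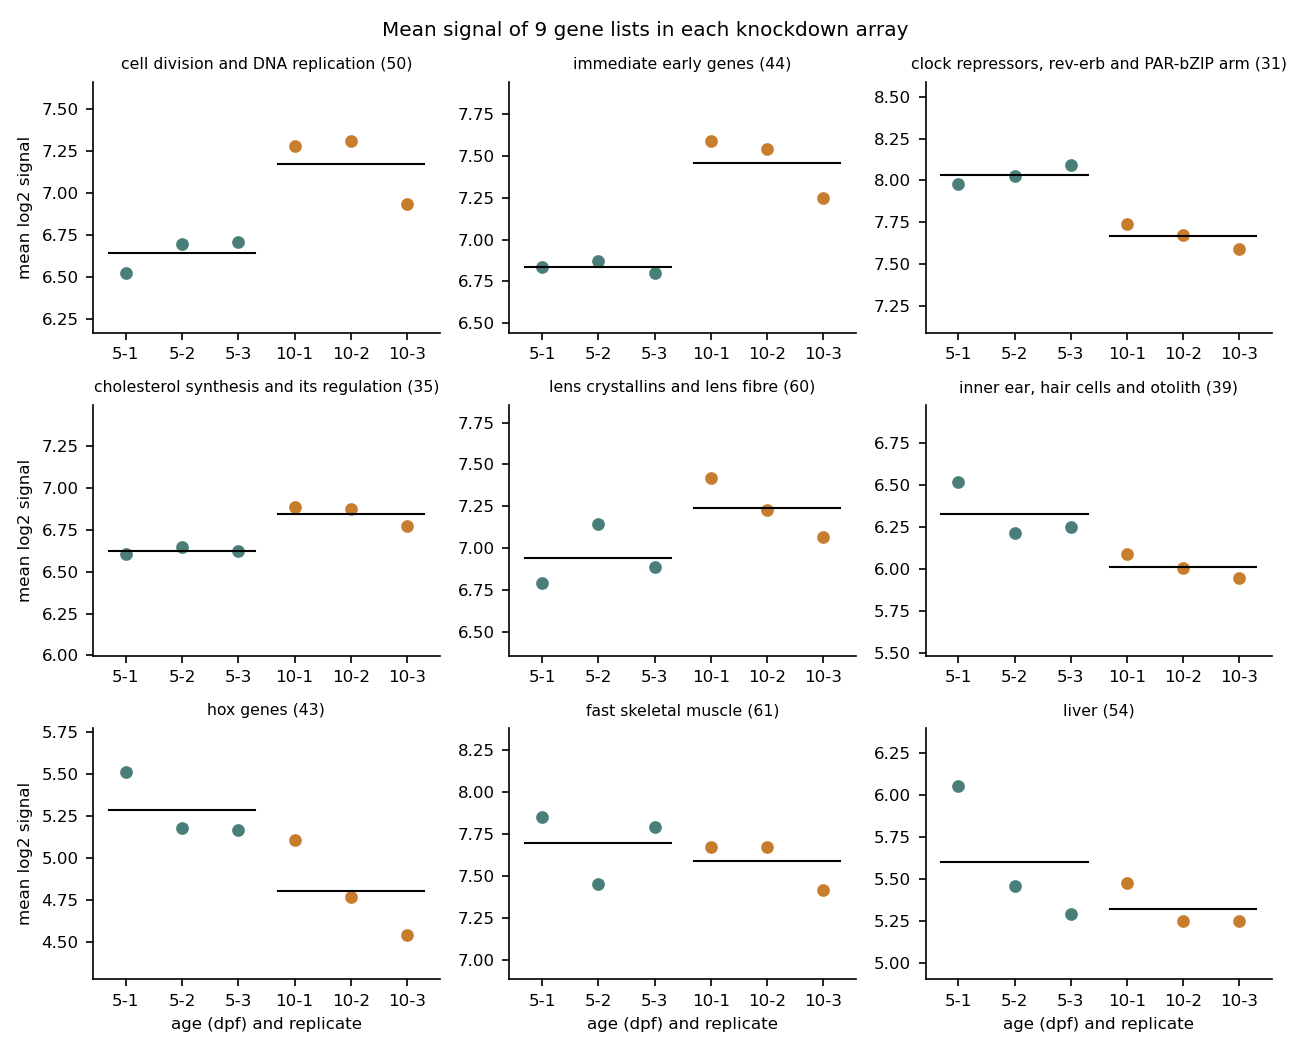
Mean log2 signal of 9 gene lists (number of genes in brackets) in each knockdown array, labelled by age in dpf and replicate, with the mean of each age as a line; every panel spans the same height on its axis. Cell division, immediate early and cholesterol lists are higher in all pools of 10 dpf, clock repressor, inner ear and hox lists are lower in all, and replicate 1 of 5 dpf is the highest in the liver, hox and inner ear panels.

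Cholesterol synthesis genes rose in part. Of 35 members of the pathway and its regulation 11 rose (31.4%, against 5.35% of all genes) and 1 fell (2.86%, against 2.91%), with a median of 0.23. The late enzymes sc5d and cyp51 showed the smallest p. From 5 to 10 dpf sc5d went from 5.98, 6.52 and 6.43 to 7.34, 7.21 and 7.31, by 0.98 (SE 0.16, adjusted p = 0.000193), and cyp51 from 7.22, 7.40 and 7.38 to 8.20, 8.42 and 8.09, by 0.90 (SE 0.15, adjusted p = 0.000313). The pools of 10 dpf all lay above those of 5 dpf in both genes. Smaller rises in tm7sf2 (0.57, adjusted p = 0.00752), hmgcs1, the enzyme that makes HMG-CoA (0.65, adjusted p = 0.00895), sqlea, squalene epoxidase (0.63, adjusted p = 0.00808), and msmo1 (0.45, adjusted p = 0.0143) each lost their call without at least 1 array, with a highest adjusted p of 0.0615, 0.081, 0.0522 and 0.062. The fall was mylipb, a ubiquitin ligase that removes the LDL receptor in mammals, at -0.67 (adjusted p = 0.00545). The number of rises was 7 without replicate 1 or 2 of 5 dpf and 5 without replicate 2 of 10 dpf.

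Genes that handle fatty acids went both ways. Of 40 members of synthesis and elongation 4 rose (10.0%, against 5.35% of all genes) and 2 fell (5.0%, against 2.91%). The desaturase fads2 and the elongase elovl2, which make long polyunsaturated fatty acids, rose by 1.32 each (SE 0.16, adjusted p = 3.64e-06, and SE 0.21, adjusted p = 0.00016). The pools of fads2 read 6.51, 6.59 and 6.56 and then 7.96, 8.04 and 7.62, and those of elovl2 5.68, 5.43 and 5.17 and then 6.73, 6.99 and 6.52. Both genes were higher at 10 dpf in all pools. The elongase elovl8a fell by 1.37 (adjusted p = 5.21e-05), and the triglyceride-forming dgat2, also a member of the intestine list, fell by 1.07 (adjusted p = 0.00318). Of 44 genes of fatty acid oxidation 6 rose (13.6%, against 5.35% of all genes) and 1 fell (2.27%, against 2.91%), with a median of 0.16. The mitochondrial enzymes hadhaa (0.89, adjusted p = 0.000156) and hadh (0.70, adjusted p = 0.000244) rose, and the coactivator ppargc1b fell by 0.62 (adjusted p = 0.000274); without replicate 2 of 5 dpf 3 members rose. Of 47 lactate and glucose genes 3 rose (6.38%, against 5.35% of all genes) and 4 fell (8.51%, against 2.91%). The falls were 2 without replicate 3 of 5 dpf, 1 without replicate 1 of 5 dpf or replicate 2 or 3 of 10 dpf, none in limma without replicate 2 of 5 dpf, and 8 after a second quantile normalization or median centring. The regulator of glycolysis pfkfb3 rose by 1.01 (adjusted p = 0.000184) and the transporter slc16a6b by 1.57 (adjusted p = 0.00161).

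Genes of the skeleton and its matrix also split. Of 42 osteoblast, osteoclast and bone matrix genes 8 rose and 3 fell, with a median of 0.20. Of 44 collagens and their enzymes 7 rose and none fell in limma (12 and 2 at an unadjusted p under 0.05). Both lists hold col1a1a and col1a1b, so their rises overlap. Of 40 cartilage genes 3 fell (7.5%, against 2.91% of all genes) and none rose in limma (5 and none at an unadjusted p under 0.05). The largest of these falls was the otolith gene otomp, which the inner ear list also holds. Of 18 tooth genes 3 fell (16.7%, against 2.91% of all genes) and none rose in limma (6 and 1 at an unadjusted p under 0.05). Without replicate 1 of 5 dpf none of these 2 lists fell in limma. The type I collagen chain col1a1a, the main protein of bone and dermis, went from 9.17, 9.24 and 9.01 to 10.53, 10.26 and 9.71, a rise of 1.03 (SE 0.19, adjusted p = 0.00096). The other chains col1a1b and col1a2 rose by 0.73 (adjusted p = 0.00146) and 0.84 (adjusted p = 0.00577), with replicate 3 of 10 dpf the lowest of its age in all 3 chains. The procollagen processing enhancer pcolcea rose by 1.01 (adjusted p = 0.000823) and lumican, lum, which shapes collagen fibrils, by 0.78 (adjusted p = 0.000269). In contrast serpinh1b, the collagen chaperone Hsp47, fell from 7.77, 7.99 and 7.73 to 5.99, 6.36 and 6.12, by 1.67 (SE 0.25, adjusted p = 0.000111). The number of rises in the bone list was 5 without replicate 1 or 2 of 5 dpf and 4 without replicate 2 of 10 dpf, and its falls were 1 without replicate 1 of 5 dpf or replicate 2 of 10 dpf.

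Inner ear genes fell or did not pass. Of 39 members, 21 of them dim, 7 fell (17.9%, against 2.91% of all genes) and none rose in limma. At an unadjusted p under 0.05 these counts were 14 and none, and the median was -0.21. Starmaker, stm, a protein of the otolith, read 9.66, 8.04 and 8.49 at 5 dpf and 7.42, 7.04 and 6.90 at 10 dpf, a fall of 1.61 (SE 0.29, adjusted p = 0.000588). Replicate 1 of 5 dpf, the pool with the liver signal, was its highest. The otolith matrix protein otomp fell by 1.91 (SE 0.42, adjusted p = 0.0044), and its pools overlapped (7.81, 5.595 and 7.24, then 5.88, 4.52 and 4.52). The tectorial membrane gene tectb fell by 1.05 (adjusted p = 0.0116). The calls of otomp and tectb were lost without replicate 1 of 5 dpf (adjusted p = 0.052 and 0.0694), and without that array 3 members of the list fell.

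The synaptic and the progenitor list each had more falls than rises, and the hypothalamic list had more rises than falls. Of 65 synaptic and mature neuron genes 6 fell (9.23%, against 2.91% of all genes) and none rose in limma (19 and 2 at an unadjusted p under 0.05). The median was -0.19. The count of falls was 2 without replicate 3 of 5 dpf or replicate 2 of 10 dpf, and none with limma's spread from the 6 arrays alone. After a second quantile normalization or median centring 12 fell. The falls with the smallest p were the glycine receptor glra1 (-0.59, adjusted p = 0.0035) and the neurofilament nefmb (-0.72, adjusted p = 0.00972; 0.0597 without replicate 1 of 10 dpf). Outside the list the glycine transporter slc6a5, of inhibitory neurons of hindbrain and spinal cord, went from 9.30, 7.83 and 8.67 to 7.05, 6.96 and 6.68, by -1.70 (SE 0.32, adjusted p = 0.00117). The Cdk5 activator cdk5r2b fell from 9.24, 9.57 and 9.15 to 7.52, 7.87 and 7.97, by 1.54 (SE 0.14, adjusted p = 3.26e-08). The calcium-binding proteins calb2b and calb2a, calretinins of sensory and other neurons, fell by 0.93 (adjusted p = 0.00113) and 0.63 (adjusted p = 0.000383). The glutamate transporter slc1a2a fell by 1.16 (adjusted p = 0.000219). Of 56 genes of neural progenitors and early neurons 3 rose (5.36%, against 5.35% of all genes) and 6 fell (10.7%, against 2.91%). Among the falls were sox11a (-0.41, adjusted p = 0.00536) and elavl4 (-0.50, adjusted p = 0.00986, and 0.0652 without replicate 3 of 5 dpf). The rises were 1 without replicate 1 of 5 dpf or replicate 2 of 10 dpf, and the falls 3 without replicate 1 of 5 dpf and 9 after either rescaling; none of either passed in limma with the spread from the 6 arrays alone. The synaptic gene snap25a overlapped between ages with a step of -0.13 (adjusted p = 0.738). Among 52 hypothalamic peptide genes 5 rose (9.62%, against 5.35% of all genes) and 1 fell (1.92%, against 2.91%). The hormone oxytocin, oxt, went from 7.64, 7.73 and 7.40 to 8.53, 8.74 and 8.42, a rise of 0.97 (SE 0.17, adjusted p = 0.000484). The rises of this list were 1 without replicate 1 of 5 dpf, 2 without replicate 2 of 10 dpf, 3 without replicate 2 of 5 dpf or replicate 3 of 10 dpf, and 1 with the visceral signal as a covariate or with the 6 arrays alone. None of the 26 pituitary genes passed in limma (1 higher and 3 lower at an unadjusted p under 0.05), but 3 fell without replicate 1 of 10 dpf, 2 fell without replicate 3 of 5 dpf and 1 rose without replicate 2 of 5 dpf.

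Hox genes, which pattern hindbrain and trunk, were mostly dim (39 of 43). In limma 9 fell (20.9%, against 2.91% of all genes) and none rose (22 and none at an unadjusted p under 0.05), with a median of -0.46. Their mean signal was 5.51, 5.18 and 5.17 at 5 dpf and 5.11, 4.77 and 4.54 at 10 dpf. The calls depended on single pools: 1 fell without replicate 1 of 5 dpf, 5 without replicate 3 of 10 dpf and 15 without replicate 1 of 10 dpf. The posterior gene hoxc13a fell by 1.13 (SE 0.23, adjusted p = 0.00216), from 5.99, 5.66 and 5.83 to 4.82, 4.43 and 4.84, and kept its call in each of the 6 fits with an array left out. The calls of hoxa10b (-1.03, adjusted p = 0.00907) and hoxd3a (-1.05, adjusted p = 0.00977) were lost without replicate 1 of 5 dpf (adjusted p = 0.0592 and 0.0885). How far the cut behind the head varied between pools was not tested. Olfactory receptors had low signals: 123 of 128 odorant receptors were dim, with 5 falls (3.91%, against 2.91% of all genes) and no rise in limma (20 and 3 at an unadjusted p under 0.05). The falls were 2 without replicate 2 of 5 dpf and 3 without replicate 1 of 5 dpf or replicate 2 or 3 of 10 dpf.

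Clustered protocadherins, cell surface proteins that give neurons their identity, rose in part. Of 30 members 8 rose (26.7%, against 5.35% of all genes) and 1 fell (3.33%, against 2.91%), with a median of 0.38. From 5 to 10 dpf pcdh2ab7 went from 5.39, 4.2 and 5.92 to 7.38, 7.93 and 8.33, a rise of 2.71 (SE 0.45, adjusted p = 0.000333). The neighbours pcdh2g3 and pcdh2g7 moved apart, by 1.25 (SE 0.16, adjusted p = 1.13e-05) and -1.26 (SE 0.15, adjusted p = 5.33e-06); the call of pcdh2g3 was lost when all its probe sets were averaged (0.49, adjusted p = 0.122). The members share sequence, so probes may report more than 1 of them. The number of rises was 2 without replicate 3 of 10 dpf and 5 without replicate 1 or 2 of 5 dpf or replicate 2 of 10 dpf.

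Chaperones moved in both directions. Of 63 members of the chaperone and unfolded protein list 7 rose (11.1%, against 5.35% of all genes) and 6 fell (9.52%, against 2.91%). The heat-inducible chaperone hsp90aa1.2 went from a mean of 9.76 ± 0.34 (SD, n = 3), with 9.42 the lowest pool, to 8.10, 8.34 and 8.40, a fall of 1.48 (SE 0.16, adjusted p = 8.51e-07). The Hsp40 partners dnaja1 and dnajb1a fell by 0.86 (adjusted p = 2.61e-05) and 0.58 (adjusted p = 0.000251). The disulfide isomerases pdia3 and p4hb, which fold secreted proteins, rose by 0.85 (adjusted p = 0.000106) and 0.89 (adjusted p = 0.000122). In p4hb all pools of 10 dpf (9.72 to 9.97) lay above those of 5 dpf (8.66 to 9.22). The collagen chaperone serpinh1b, described above, is also a member of this list and showed its largest fall.

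Genes of nutrient shortage and growth arrest changed in both directions, 6 up (9.52%, against 5.35% of all genes) and 5 down (7.94%, against 2.91%) among 63. The rises were 3 without replicate 2 of 10 dpf, and the falls 2 without that array, 3 without replicate 3 of 5 dpf and 8 without replicate 1 of 10 dpf. The transcription factor klf15, induced by fasting and glucocorticoids in mammals, fell from 6.75, 6.71 and 6.89 to 6.04, 5.86 and 5.69, by 0.92 (SE 0.12, adjusted p = 1.78e-05). The amino acid response genes trib3 and sesn2 rose by 0.85 (adjusted p = 0.000581) and 0.86 (adjusted p = 0.00301). Of 28 genes of the glucocorticoid response 6 rose (21.4%, against 5.35% of all genes) and 4 fell (14.3%, against 2.91%). The falls include klf15, cry5, per1b and tat. Of 43 mTORC1 pathway genes 3 rose (6.98%, against 5.35% of all genes) and 1 fell (2.33%, against 2.91%). These counts were 5 and none in limma without replicate 3 of 5 dpf, and 2 and none without replicate 2 of 10 dpf. Among the rises was the amino acid carrier slc7a5 at 0.61 (adjusted p = 0.000138). Of 61 ribosomal proteins 5 rose, a larger share than the 5.35% of all genes, and none fell in limma (12 and none at an unadjusted p under 0.05). Of 83 oxidative phosphorylation subunits 3 rose and 1 fell, both smaller shares than the 5.35% and 2.91% of all genes. The ribosomal rises were none in limma without replicate 1 of 5 dpf, 3 without replicate 2 or 3 of 5 dpf, 1 and 2 without replicates 2 and 3 of 10 dpf and 10 without replicate 1 of 10 dpf. The rises of oxidative phosphorylation were 9 without replicate 1 of 10 dpf and 1 without replicate 1 of 5 dpf or replicate 2 of 10 dpf, and 2 fell without replicate 1 or 2 of 10 dpf.

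Immune, skin, pigment and muscle genes moved in both directions. Among 62 neutrophil and macrophage genes 6 rose (9.68%, against 5.35% of all genes) and 4 fell (6.45%, against 2.91%). The rises included cebpb (1.48, adjusted p = 0.000159), the feedback inhibitor socs3a (1.37, adjusted p = 0.00634) and the NF-kappaB inhibitor nfkbiaa (1.03, adjusted p = 0.000692), genes that many cell types express. The rises of this list were 3 without replicate 1 or 2 of 5 dpf or replicate 2 of 10 dpf. Its falls were 1 without replicate 2 of 5 dpf or any single array of 10 dpf, 2 without replicate 1 of 5 dpf, and none in limma with the visceral covariate or the 6 arrays alone. Of 36 genes of MHC and antigen presentation 5 rose (13.9%, against 5.35% of all genes) and 1 fell (2.78%, against 2.91%). The proteasome activators psme1 and psme2 rose by 1.09 (adjusted p = 0.000323) and 0.97 (adjusted p = 0.00206), and the lowest step of the list was -0.88. Without replicate 1 of 5 dpf or replicate 2 of 10 dpf 2 rose and none fell in limma. Of 53 keratin and junction genes of skin 8 rose and 5 fell, both larger shares than the 5.35% and 2.91% of all genes. Examples were krt5 of basal cells (0.50, adjusted p = 0.00431), krt18a.1 (0.54, adjusted p = 0.00218), the desmosomal dsg2.1 (1.26, adjusted p = 0.00673) and the larval type I keratin cyt1l (-1.12, adjusted p = 0.000218). The superficial keratin krt4 fell by 0.39 (adjusted p = 0.019; 0.0825 without replicate 3 of 10 dpf), and the keratin list had 3 rises without replicate 1 of 5 dpf, 4 without replicate 2 of 10 dpf and 5 without replicate 2 of 5 dpf or 1 of 10 dpf. Its falls were 2 without replicate 3 of 5 dpf and 3 without replicate 1 or 3 of 10 dpf. The mucin muc5.2 fell by 1.49 (adjusted p = 0.000136), and lgals1l1, a galectin of the mucous list, rose by 1.904 (adjusted p = 0.000274). The melanosome protein pmelb went from 5.40, 5.65 and 5.75 to 7.55, 7.47 and 7.47, a rise of 1.896 (SE 0.21, adjusted p = 9.77e-07). Of 61 fast muscle genes 2 rose (3.28%, against 5.35% of all genes) and 4 fell (6.56%, against 2.91%). Among them were pvalb3 (1.23, adjusted p = 0.00162), ampd1 (-0.92, adjusted p = 0.000249) and myoz1b (-1.06, adjusted p = 0.000329). The last enzyme of heme synthesis, fech, fell by 1.11 (SE 0.13, adjusted p = 1.45e-06).

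Further large rises fell in no list. The hypoxia- and stress-responsive ndrg1b went from 8.70, 9.12 and 9.16 to 11.18, 11.22 and 11.48, by 2.299 (SE 0.24, adjusted p = 3.79e-07). The activin subunit inhbb went from 7.61, 7.65 and 8.15 to 10.24, 9.80 and 9.31, by 1.98 (SE 0.19, adjusted p = 1.44e-07). Ornithine decarboxylase odc1, which starts polyamine synthesis, rose by 1.81 (SE 0.27, adjusted p = 8.01e-05). All of these were picked among genes whose ages did not overlap, so that trait is no further result.

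The same step was also measured in control heads, on 6 other arrays. There 5483 genes (28.5%) were called, 2652 higher (13.8%) and 2831 lower (14.7%), and most of the visceral genes were among those lower. The control pools of the 2 ages did not overlap for 7227 genes (37.5%), 3607 higher (18.7%) and 3620 lower (18.8%). Of the 1590 genes called in knockdown heads 731 were called in the same direction in controls (46% of the knockdown calls, 13.3% of the control calls) and 58 in the opposite one. The sign was shared by 1288 (81.0%). Across all genes the steps correlated with r = 0.41 and rho = 0.37; genes are not independent replicates. The difference of the steps passed for 1931 genes (10%), 1192 with a higher (6.19%) and 739 with a lower (3.84%) step in knockdown heads, and for 331 of the 1590. This split too depended on the scaling: after median centring 996 differences were higher and 1508 lower, after a second quantile normalization 1175 and 1160, and the median difference of all genes moved from 0.04 to -0.07 and -0.06. The control split was 3417 higher and 2509 lower after median centring. Controls at 5 dpf carried more visceral signal than the knockdown heads, and its part in these differences was not tested.

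**Figure D5:**
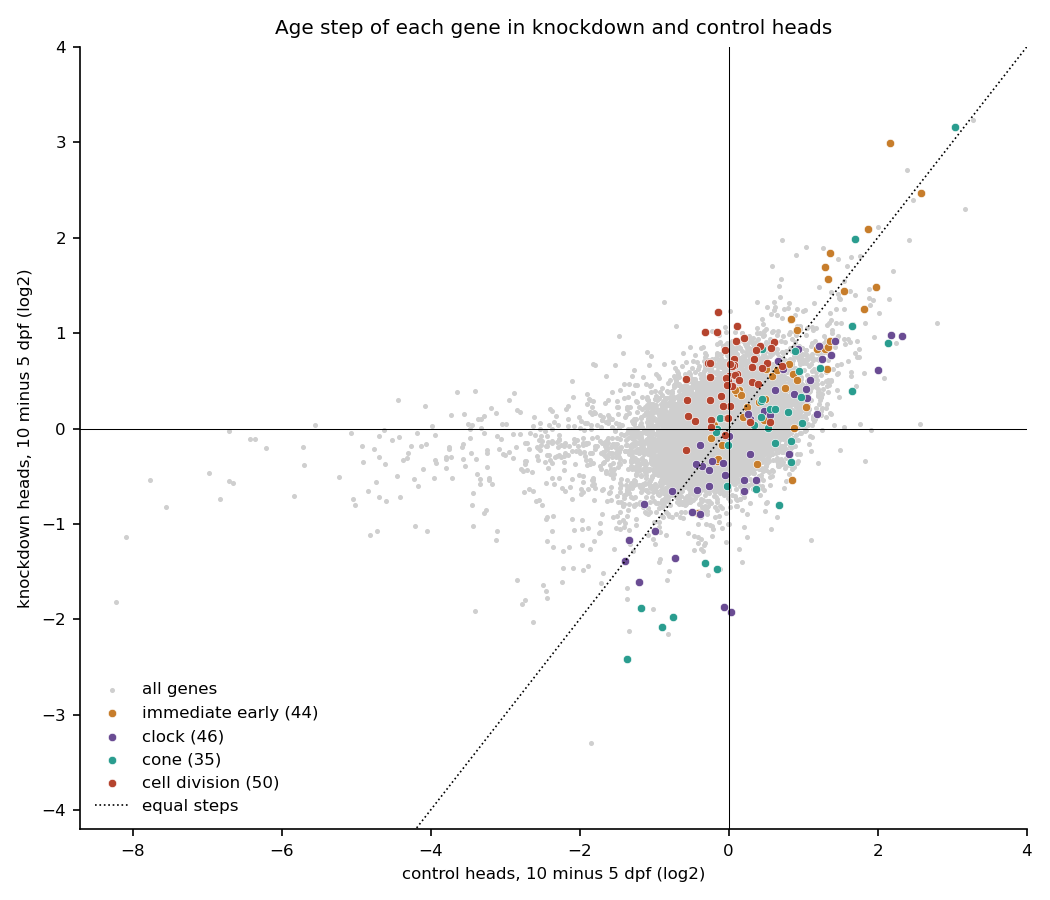
Age step, 10 minus 5 dpf on the log2 scale, of each of the 19260 genes in control heads (horizontal) and in knockdown heads (vertical), with 4 groups of lists in colour and the line of equal steps dotted. Opsin and immediate early genes with large rises lie near the line, most cell division genes lie above it, and a tail of genes falls by up to 8.22 in controls with small steps in knockdown heads.

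By list, the called differences as deposited had 1 direction, or nearly so, in several cases. In cell division 13 members had a higher step in knockdown heads and none a lower one in limma (29 and 1 at an unadjusted p under 0.05), and the median step of the list in controls was 0.02. This count was 8 without replicate 1 of knockdown 5 dpf, replicate 1 or 2 of knockdown 10 dpf or replicate 2 of control 5 dpf, and 24 without replicate 3 of knockdown 10 dpf; after median centring it was 9, with 1 lower. For cdk1 the controls read 6.90, 6.60 and 6.29 at 5 dpf and 6.93, 6.11 and 6.34 at 10 dpf, and the difference of the steps was 1.36 (adjusted p = 0.00239). In cholesterol synthesis 11 had a higher and 1 a lower step, in fatty acid oxidation 21 and none, and in bone 8 and none, in limma. At an unadjusted p under 0.05 fatty acid oxidation had 28 and 3 and bone 16 and 1. The median steps of these lists in controls were -0.05, -0.29 and -0.13. In controls 9, 21 and 9 of their members fell, and 4, 2 and 1 rose. A higher step can thus hold a fall in controls as well as a rise in knockdown heads. The bone count was 5 without replicate 1 of knockdown 5 dpf or replicate 1 or 2 of knockdown 10 dpf. After median centring 8 were higher and 3 lower in cholesterol synthesis, 20 and 3 in fatty acid oxidation and 6 and 1 in bone. With only the compared arrays in the fit these counts were 9 and 1, 12 and none, and 4 and none in limma. The cell division count in that fit was 6, with none lower. In the cone list 15 of 35 had a lower step in knockdown heads and none a higher one in limma (21 and none at an unadjusted p under 0.05). The controls had a median of 0.53, and pde6c differed by -1.32 (adjusted p = 1.4e-05) and gucy2d by -1.48 (adjusted p = 9.15e-06). In the list of clock activators, rorc and nfil3 10 of 15 had a lower step in knockdown heads, among them the repressors nfil3-2, nfil3-5 and nfil3-6. The rises of opn1lw1, fosab, crybg2 and kera differed by 0.13, -0.11, -0.07 and 0.05 from those of the controls (adjusted p = 0.872, 0.945, 0.908 and 0.948). Fast muscle fell in controls (47 of 61) and gave 41 higher steps in knockdown heads.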

How the data were processed

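Total RNA (RNeasy) was labelled with the GeneChip WT PLUS kit and hybridised to 30 Affymetrix ZebGene 1.0 ST arrays, per the labels' protocols. The deposited values are log2 signals, 1 per probe set, and the submitters' processing notes name RMA, without version or settings. No further normalization, floor or detection call was applied. Of 75212 probe sets, 20806 (27.7%) had 1 gene symbol in the platform annotation, 855 several and 53551 none; 20323 symbols were updated by Entrez identifier. For 1365 symbols the brightest of several probe sets was used, which left 19260 genes.

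A mean per group was fitted over all 30 arrays with limma 3.58.1 in R 4.3.3 (lmFit, eBayes; 20 residual and 6.05 prior degrees of freedom). The fit was also run on simulated data with independent noise and the same spread of a gene in every group. Such data hold neither unequal group spreads nor shifts shared by the genes of an array. The run therefore lends no support to the calls made here. Contrasts were knockdown 10 minus 5 dpf, the same for controls, and their difference, two-sided, with Benjamini-Hochberg adjustment over all genes and a threshold of 0.05. A list is described by its members called and its median step, beside those of all genes.

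Named were grb10a and grb10b, the 15 largest rises and 15 largest falls among called genes whose 3 arrays of 1 age lay outside the range of the other 3 (clone-based symbols passed over), the 4 members of each list with the smallest p, and the 10 largest differences of the steps. Of these the text gives a part; other list members, and 5 of the 66 lists, were picked with the values in view. The comparison, the members and all lists were chosen with earlier results of these data known.

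Alternatives were an intensity trend with robust prior, only the compared arrays in the fit, dim genes left out, a second quantile normalization, median centring, the mean of all probe sets of a gene, weights for array quality, replicate numbers as a block, each array left out in turn, visceral list genes left out and, added after seeing the data, the mean visceral signal as a covariate. Plots used matplotlib 3.10.9 (Python 3.11.15). No sequence of the probes or genes was used here.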

Additional observations from a re-analysis of the deposited data

Results flagged for a closer look

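Each of the following genes had a step from 5 to 10 dpf that differed between knockdown and control heads in limma (adjusted p under 0.05 for the difference, given here as knockdown step minus control step on the log2 scale). There were 74 among the 172 genes named, 45 with a higher and 29 with a lower step in knockdown heads. Over all genes the difference passed for 10%, 6.19% higher and 3.84% lower. The named genes were picked in part for large steps or large differences, so their share is no result about them. The groups hold 3 arrays each, too few for a test of single outlying arrays.

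Digestive and liver genes gave the largest values: prss59.2 7.23, prss59.1 6.95, apobb.1 6.72, prss1 6.68, ctrb.3 6.52, fetub 6.40, ela2 6.32, amy2a 6.25, ela3l 6.16, cpa5 6.09, apoa2 4.39, dgat2 3.65, gamt 3.18 and tat 2.03. None of these but dgat2, gamt and tat was called in knockdown heads by limma, tat only with replicate 1 of 5 dpf in the fit (adjusted p = 0.0534 without it), and all fell in control heads, whose visceral mean went from 7.82 to 5.202. Fast muscle genes gave ampd1 1.52, pvalb3 1.22 and myoz1b 1.02; that of pvalb3 lost its call with at least 1 array left out (highest adjusted p 0.0628).

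Among the flagged genes of growth, division and secretion the step was higher in knockdown heads. The values were cdk1 1.36, prc1b 1.33, ccna2 1.16, tyms 0.97, pcna 0.81, spdl1 0.73, ncapg 0.63 and CENPF 0.62 for cell division, and p4hb 1.04, ssr2 0.74 and pdia3 0.70 for the endoplasmic reticulum. They were psma5 0.87 and psmb7 0.49 for the proteasome, and igfbp1a 1.396 and inhbb 1.27 for hormone genes. In control heads the step of igfbp1a was -0.61 and that of inhbb 0.71. The differences of tyms, pcna, spdl1, ncapg, CENPF, ssr2 and pdia3 lost their call with at least 1 of 12 arrays left out (highest adjusted p 0.146, for pcna). Of the 50 members of the cell division list 13 had a called difference. Named members without a called difference in limma include top2a (adjusted p = 0.372), MKI67 (0.171), nuf2 (0.439) and rrm1 (0.0562).

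Flagged lipid and matrix genes were higher as well: elovl2 2.197, tm7sf2 1.16, sc5d 1.102, cyp51 1.04, fads2 0.95, hadh 0.94, hadhaa 0.87 and msmo1 0.75, and col1a1a 1.25, pcolcea 0.92, lum 0.88, col1a1b 0.71 and krt18a.1 0.48. The control steps of the lipid genes, in this order, were -0.87, -0.59, -0.12, -0.14, 0.38, -0.24, 0.03 and -0.30. The differences of pcolcea, col1a1b and krt18a.1 lost their call with at least 1 array left out (highest adjusted p 0.142).

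Flagged photoreceptor and retinoid genes had a lower step in knockdown heads: gucy2d -1.48, ankrd33ab -1.45, faim2b -1.35, pde6c -1.32, guca1c -1.23, grk7a -1.19, rcvrn3 -1.16, cnga3a -1.09, guca1d -1.05, rbp3 -0.89, rbp4l -0.88, gnb3b -0.60 and pde6ha -0.58. The flagged clock genes did too: nfil3-6 -1.95, bhlhe40 -1.81, rorcb -1.39, nfil3-2 -1.35, nfil3-5 -1.20, roraa -0.91, bmal1a -0.58 and clocka -0.52. The remaining ones were hsp90aa1.2 -1.36, cdk5r2b -1.26, grb10b -1.06, pcdh2g7 -0.89, grb10a -0.85, dnaja1 -0.57, calb2a -0.48 and dnajb1a -0.46. The differences of pde6ha, gnb3b, clocka, dnaja1, dnajb1a and calb2a lost their call with at least 1 array left out (highest adjusted p 0.155, for gnb3b).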

How the results depend on the processing

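With the spread taken only from the compared arrays, 333 genes were called in knockdown heads, 3605 in controls and 943 in the difference of the steps, where fewer arrays leave fewer degrees of freedom. Leaving out each array in turn gave 831 to 1553 calls in knockdown heads (831 without replicate 1 of 5 dpf, 852 without replicate 2 of 10 dpf), 144 to 241 calls of at least 2-fold against 197, 4299 to 5357 in controls and 1330 to 2548 in the difference. All other alternatives gave 1154 to 1826 calls in knockdown heads, 1154 of them with the visceral signal as a covariate, an alternative added after seeing the data. The cause of that decrease was not tested. Calls of at least 2-fold ranged from 156 to 222 over these alternatives and the fit of the compared arrays. The split of the difference was 1192 higher and 739 lower as deposited, 1175 and 1160 after a second quantile normalization and 996 and 1508 after median centring (2504 calls). Over the 155 named genes called in knockdown heads, 2393 of 2468 steps under an alternative kept direction and call, 75 lost the call and none changed sign. Of the 75, 47 arose with the compared arrays alone, 2 (hoxd3a, pcdh2g3) with all probe sets averaged, and the rest with an array left out. Over the 17 named genes not called, 5 of 258 steps gained a call and 20, in 11 genes, changed sign. With each array left out the steps ranged from -0.6142 to 0.3703 in prss1, -0.3685 to 0.1306 in ela2, -0.2605 to 0.0766 in amy2a, -0.5765 to 0.1592 in apoa2, -0.3101 to 0.0377 in snap25a, -0.3024 to 0.0225 in per1a and -0.0023 to 0.0927 in opn1sw1. With the visceral covariate the turned steps were prss59.2 0.3056, apobb.1 0.1621, prss1 0.7176, ctrb.3 0.1803, ela2 0.4018, amy2a 0.2929, ela3l 0.0048, apoa2 0.3775 and per1a 0.0448, and opn1sw1 turned with median centring (-0.0155) and array weights (-0.0188). Uncalled genes that the naming rule also picked turned as well: hbba2 with quantile normalization (0.0393) and over the arrays left out (-0.2648 to 0.0648), hbaa2 over the arrays left out (-0.5482 to 0.0509) and myh7 with probe sets averaged (1e-04). Same-numbered arrays of the 2 ages deviated from their group means with correlations of 0.01, -0.05 and 0.07. Arrays of unlike number gave -0.15 to 0.14. With 3 arrays in a group these values cannot show whether the numbers pair the samples, which were treated as unpaired. With the replicate number as a block 1610 genes were called, against 1590. Dim genes have a low mean over all arrays, and a signal near background limits a fold change. No background level was measured here, however, and a dim gene can be bright in 1 group: amy2a had a mean of 10.80 in control heads at 5 dpf.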

Other observations

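Lists of protein synthesis, turnover and chromosome structure that were put together after the values had been seen are given as a description, with no support drawn from them. Over all genes 5.35% were called higher and 2.91% lower. Of 25 condensin and kinetochore genes 16 were called higher at 10 dpf in knockdown heads and none lower, with a median step of 0.70 (18 and none at an unadjusted p under 0.05; 1 lower without replicate 3 of 10 dpf). The condensin subunit ncapd3, which helps to compact chromosomes, read 6.002, 5.97 and 6.05 at 5 dpf and 7.11, 7.01 and 6.70 at 10 dpf, a step of 0.93 (SE 0.11, adjusted p = 4.92e-06 in limma). The condensin subunits ncapg and ncapg2 stepped by 0.93 (adjusted p = 1.64e-05) and 1.202 (adjusted p = 0.000246) and the kinetochore protein spdl1 by 0.92 (adjusted p = 0.000159). All pools of 10 dpf lay above those of 5 dpf in these genes.

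Of 33 aminoacyl-tRNA synthetases, which load amino acids onto tRNA, 11 were higher and none lower in limma (18 and none at an unadjusted p under 0.05; 6 without replicate 2 of 5 dpf, 7 without replicate 1 of 5 dpf or replicate 2 of 10 dpf). Among them iars1 went from 6.15, 6.44 and 6.65 to 7.96, 7.89 and 7.33, a step of 1.31 (adjusted p = 5.78e-06), and aars1 stepped by 1.02 (adjusted p = 9.3e-05). Of 24 genes of amino acid supply 10 were higher and 1 lower (2 lower without replicate 1 of 5 dpf), with the serine synthesis enzymes phgdh (0.83, adjusted p = 0.00291) and psat1 (0.80, adjusted p = 0.00391), the proline enzyme pycr1b (1.16, adjusted p = 0.00128) and the cystine carrier slc7a11 (1.05, adjusted p = 0.00157). Of 46 proteasome genes 12 were higher and none lower (23 and none at an unadjusted p under 0.05), for example psma5 (0.92, adjusted p = 0.000344), psmb7 (0.60, adjusted p = 0.000112) and the assembly factor pomp (1.25, adjusted p = 0.00318). Of 35 genes of the translocon and early secretory pathway 10 were higher and none lower (21 and none at an unadjusted p under 0.05), among them dad1 (0.86, adjusted p = 0.000396) and ssr2 (0.83, adjusted p = 0.000455); the count was 2 without replicate 1 of 5 dpf and 3 without replicate 2 of 10 dpf. With the spread taken from the 6 arrays alone the calls higher were 8 of the condensin and kinetochore genes, 3 synthetases, 2 genes of amino acid supply, 3 proteasome genes and 1 of the translocon list.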
